A study of Mus musculus with 8 samples.

Results

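The genes described here encode the proteins of the cytosolic ribosome. They were taken by name and biotype: protein-coding genes whose symbol starts with Rpl or Rps and a digit, with Rplp0, Rplp1, Rplp2 and Rpsa, leaving out the S6 kinase genes, symbols containing "bp" and symbols marked as pseudogenes. This gave 85 of the 54532 genes listed, 52 of the large subunit and 33 of the small subunit. Splenic CD4+ T cells of wild-type (WT) mice were treated for 3 days with vehicle or with dimethyl succinate, a cell-permeable ester of the tricarboxylic acid cycle intermediate succinate, and messenger RNA was sequenced in bulk. Each group held 4 libraries, numbered 1 to 4 as in their titles, and a library held between 13407295 and 16688854 counts. The labels do not say whether the 4 libraries of a group stem from different mice, cultures or preparations, and p-values here cover only the variation among these libraries, part of which may be technical.

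A ribosome is built from a large and a small subunit, each an RNA scaffold bound by many different proteins in fixed stoichiometry. In T cells, activation is followed by a large increase in ribosome production, and the messenger RNAs of ribosomal proteins are among the most abundant of the cell. Most of these mRNAs start with a C followed by an unbroken run of pyrimidines, the 5′ terminal oligopyrimidine (TOP) tract, through which the mTOR pathway and the RNA-binding protein LARP1 control their translation. Ribosomal protein genes also have very many processed pseudogenes, intronless copies scattered over the genome.

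The tract can be read from the promoter table of RefSeq (GRCm38.p6). The 6 windows below run from 10 bases before to 20 bases after an annotated transcription start, with the run of C and T from the start in capitals. They belong to members whose values are described below: Rps6, substrate of S6 kinase, Rps15a of the small subunit, Rplp2 of the stalk, Rpl35 of the exit tunnel rim, and Rps27 with its intron-poor paralog Rps27rt.
Rps6, chr4:86857348-86857377, minus strand: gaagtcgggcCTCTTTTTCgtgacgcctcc
Rps15a, chr7:118116128-118116157, minus strand: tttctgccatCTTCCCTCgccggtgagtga
Rplp2, chr7:141447641-141447670, plus strand: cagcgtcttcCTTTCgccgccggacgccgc
Rpl35, chr2:39005112-39005141, minus strand: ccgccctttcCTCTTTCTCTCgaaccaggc
Rps27, chr3:90213629-90213658, minus strand: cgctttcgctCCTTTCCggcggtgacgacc
Rps27rt, chr9:114982720-114982749, minus strand: ttatcccttgCTTTCCggcggtgacgacct
A C at the annotated start followed by at least 4 further C or T, read on the transcribed strand only, was present for 14 of the 65 members with an entry in the table, or 21.5%. It was present for 3.01% of all 27025 genes in the table and for 3.12% of the 9730 tested genes with an entry. A stretch of at least 8 C or T anywhere in the 30-base window, which overlaps the first motif, was present for 36.9% of the members and 13.0% of all genes. A window without the motif says only that these letters are not at the annotated start.

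Ribosomal protein transcripts were among the most abundant in these cells. On the deposited FPKM scale, which divides by the listed gene length and so allows genes to be compared, the median over the 83 tested members was 424, against 6.06 over all genes tested. Members filled 47 of the 100 highest places by mean FPKM. The 5 highest were Rplp1 at a mean of 2952 FPKM over the 8 libraries, Rps3a1 at 2621, Rplp0 at 2383, Rps4x at 1600 and Rpl4 at 1490. Rplp0 and Rplp1 encode stalk proteins that recruit the elongation factors, and Rpl4 a protein with a loop in the exit tunnel. At the other end, Rpl39l stood at 0.844 FPKM, Rpl36al at 1.23, Rpl24 at 4.35, Rps10 at 5.09 and Rpl22l1 at 27.2. Rpl39l, Rpl36al and Rpl22l1 are paralogs of more abundant genes, whereas Rpl24 and Rps10 encode ordinary subunits of the ribosome. Of the 85 members, 2 did not pass the filter on low counts: Rpl10l was listed at 0 in every library and Rpl3l, a paralog known from striated muscle, had 26 counts in all. The listed lengths were 1.22 to 16.1 times the coding length, so FPKM orders these short genes only roughly.

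Many of these levels depend on how reads shared with copies were counted, which is not given in the sources used here. Each member's coding sequence was cut into overlapping windows of 50 bases, and the share of windows found exactly in transcripts of another gene was counted. The median over the members was 91.3%, every window was shared for 32 members, and 3 members shared none. All coding windows of Rpl24 were shared, 88.2% of them with Gm9385 and 81.8% with Gm28037, a gene that overlaps it and was listed at 0 counts. Of the windows of Rps10, 91.3% lay in RPS10-NUDT3, which overlaps it and was listed at 0, and 76.9% in the pseudogene Rps10-ps2, which held 24607 counts where Rps10 held 1428. The low levels of Rpl24 and Rps10 are therefore uncertain. Among 296 named pseudogenes of members, 176 had a count. Rps12-ps3 contains every window of Rps12, whose protein lies in the head of the small subunit, and held 37696 counts beside 78744 of Rps12.

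The share of the counts taken by the family as a whole overlapped between the groups. Members held 7.72, 8.36, 7.86 and 8.55% of all counts in vehicle libraries 1 to 4 and 7.94, 7.66, 7.52 and 8.24% in dimethyl succinate libraries 1 to 4. The groups overlapped, with the lowest value in dimethyl succinate library 3 and the highest in vehicle library 4. The mean share was 8.12% ± 0.398 in the vehicle group and 7.84% ± 0.319 in the treated group (SD, n = 4), and vehicle without library 4 averaged 7.98% ± 0.336 (SD, n = 3). In single libraries counting error was far smaller, with a 95% Wilson interval of 7.70 to 7.73% in vehicle library 1. In bulk samples fewer cells of a type and less RNA per cell cannot be told apart.

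The balance of the subunits was tight in 7 libraries and different in 1. Counts of large-subunit genes were 1.27, 1.26, 1.28 and 1.15 times those of small-subunit genes in vehicle libraries 1 to 4, and 1.27, 1.28, 1.29 and 1.28 times in the dimethyl succinate libraries. Vehicle library 4 alone stood apart, with relatively more small-subunit counts. The mean ratio was 1.24 ± 0.0582 in the vehicle group and 1.28 ± 0.00474 in the treated group (SD, n = 4), and 1.27 ± 0.0102 in the other vehicle libraries (SD, n = 3), so that without library 4 the difference shrank to the size of the spread between vehicle libraries.

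**Figure D1:**
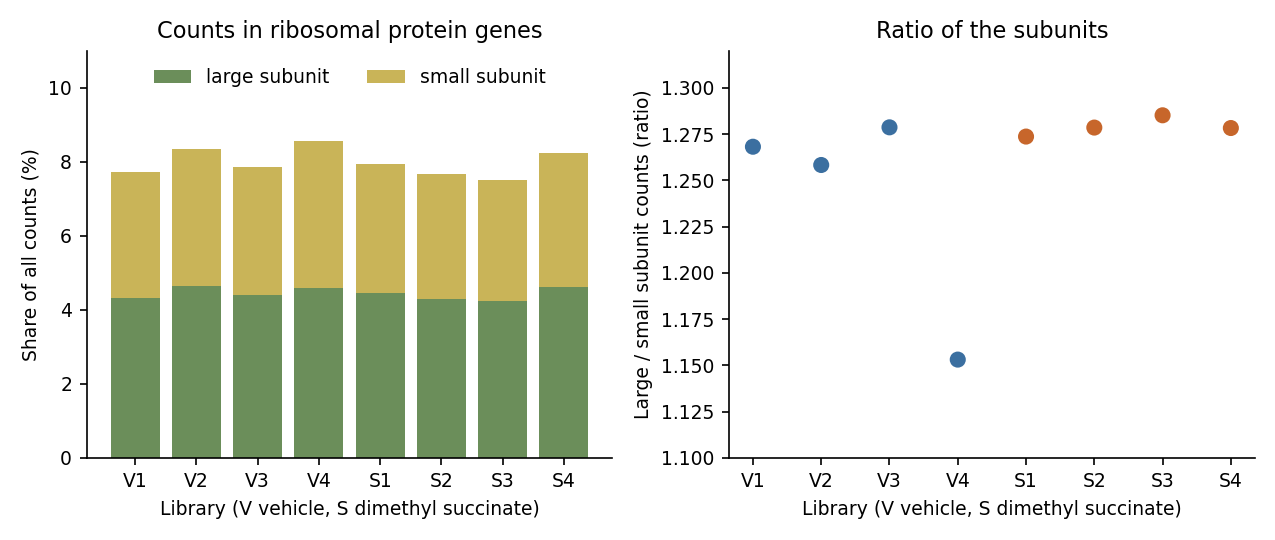
Left, share of all counts (percent) in large-subunit and small-subunit ribosomal protein genes, stacked, for each library (V vehicle, S dimethyl succinate). Right, the ratio of large-subunit to small-subunit counts for the same libraries, where V4 stands at 1.15 and the other 7 between 1.26 and 1.29; the ratio axis does not start at 0.

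Vehicle library 4 also stood apart in other measures. Counts of mitochondrially encoded genes were 0.252% of its total and 1.16 to 1.48% of the total in the other 7 libraries. Pairs of libraries that include it differed by a chi-square per gene of 35 to 39.8, against 2.46 to 3.62 between the other vehicle libraries and 2.11 to 7.92 between the dimethyl succinate libraries. Summed CPM of 6 CD4 T cell markers was 1479 to 1900 under vehicle and 1900 to 2028 under dimethyl succinate, and none of the 6 was at 0. The low end of the vehicle range, 1479, was vehicle library 4. Markers of CD8 T cells (2 genes) summed to 5.50 to 7.54 CPM, B cells (4) to 3.03 to 4.30, natural killer cells (3) to 1.01 to 2.19 and erythroid cells (4) to 1.12 to 2.74. Markers of monocytes and macrophages (5) summed to 1.27 to 1.76 CPM under vehicle and 1.90 to 3.14 under dimethyl succinate. None of these marker genes was at 0 in every library, and their part in the results on ribosomal protein genes was not tested.

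No member differed between the groups after adjustment over all genes. edgeR's quasi-likelihood F test over all 8 libraries gave 0 of 83 members with a Benjamini-Hochberg adjusted p under 0.05, as it gave 0 of 13981 genes (0.0%), and the lowest adjusted p of a member was 0.715. DESeq2 also called 0 members. At an unadjusted p under 0.05, 5 members were lower under dimethyl succinate (6.02% of members, beside 2.83% of all genes tested) and 0 were higher (beside 2.93%). The 5 were Rpl17, Rpl22l1, Rps6, Rpl24 and Rps4x. That count was 1 without dimethyl succinate library 1, 2 without library 2 or library 3 of that group, 9 without vehicle library 1 and 8 without vehicle library 3. In 6 members every dimethyl succinate library lay below every vehicle library, Rps4x, Rps6, Rpl22l1, Rpl3, Rpl7 and Rpl10 (7.23%, beside 2.32% of all genes), and in 0 every one lay above (beside 2.5%).

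The differences were small throughout. Log2 fold changes of dimethyl succinate over vehicle ran from -0.49 to 0.24 over the 83 members, with a median of -0.063 beside -0.0011 over all genes, and 52 members lay below 0. The median was -0.073 over the 50 large-subunit members, 34 of them below 0, and -0.0099 over the 33 small-subunit members, 18 of them below 0. Without vehicle library 4 the medians were -0.045 and -0.026, and 36 and 24 members lay below 0. The small-subunit median was above 0 without vehicle library 2 (0.0035), without dimethyl succinate library 3 (0.0087) and with unscaled library sizes (0.0052). No test was made of these medians, since members share libraries and many share reads.

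Rps6 encodes the small-subunit protein that S6 kinase phosphorylates downstream of mTOR. It stood at 1775, 1930, 1844 and 2643 CPM in vehicle libraries 1 to 4 and at 1622, 1757, 1714 and 1758 CPM under dimethyl succinate. All 4 treated libraries lay below all vehicle libraries, by a narrow gap that vehicle library 1 sets. The log2 fold change was -0.26 ± 0.112 (SE, edgeR, adjusted p of 0.802), and -0.11 ± 0.046 without vehicle library 4. Its start site, shown above, carries a C and 8 further pyrimidines.

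Rps4x, an X-linked gene of the small subunit, stood at 2549, 2714, 2590 and 3371 CPM under vehicle and at 2376, 2463, 2404 and 2527 CPM under dimethyl succinate. The groups again did not overlap, and again vehicle library 4 was the highest. The log2 fold change was -0.20 ± 0.091 (SE), and -0.099 ± 0.045 without that library. Rpl22l1, the paralog of Rpl22, stood at 52.7, 52.3, 57.8 and 77.0 CPM under vehicle and between 46.9 and 49.8 CPM in the 4 treated libraries. Its log2 fold change was -0.29 ± 0.111 (SE), and -0.15 ± 0.065 without vehicle library 4. For Rpl24 the log2 fold change was -0.49 ± 0.217 (SE), and -0.24 without that library, at 3.32 to 7.72 CPM per library with overlapping groups.

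Rpl3, Rpl7 and Rpl10 had separated groups with much smaller shifts. Rpl10, whose protein joins the large subunit late in its assembly, stood at 1199, 1186, 1210 and 1201 CPM under vehicle and at 1154, 1151, 1135 and 1137 CPM under dimethyl succinate. Here vehicle library 4 sat with the other vehicle libraries. The log2 fold change was -0.067 ± 0.059 (SE), with an unadjusted edgeR p of 0.275, and was -0.066 without vehicle library 4. Rpl3 and Rpl7 had log2 fold changes of -0.080 and -0.061.

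**Figure D2:**
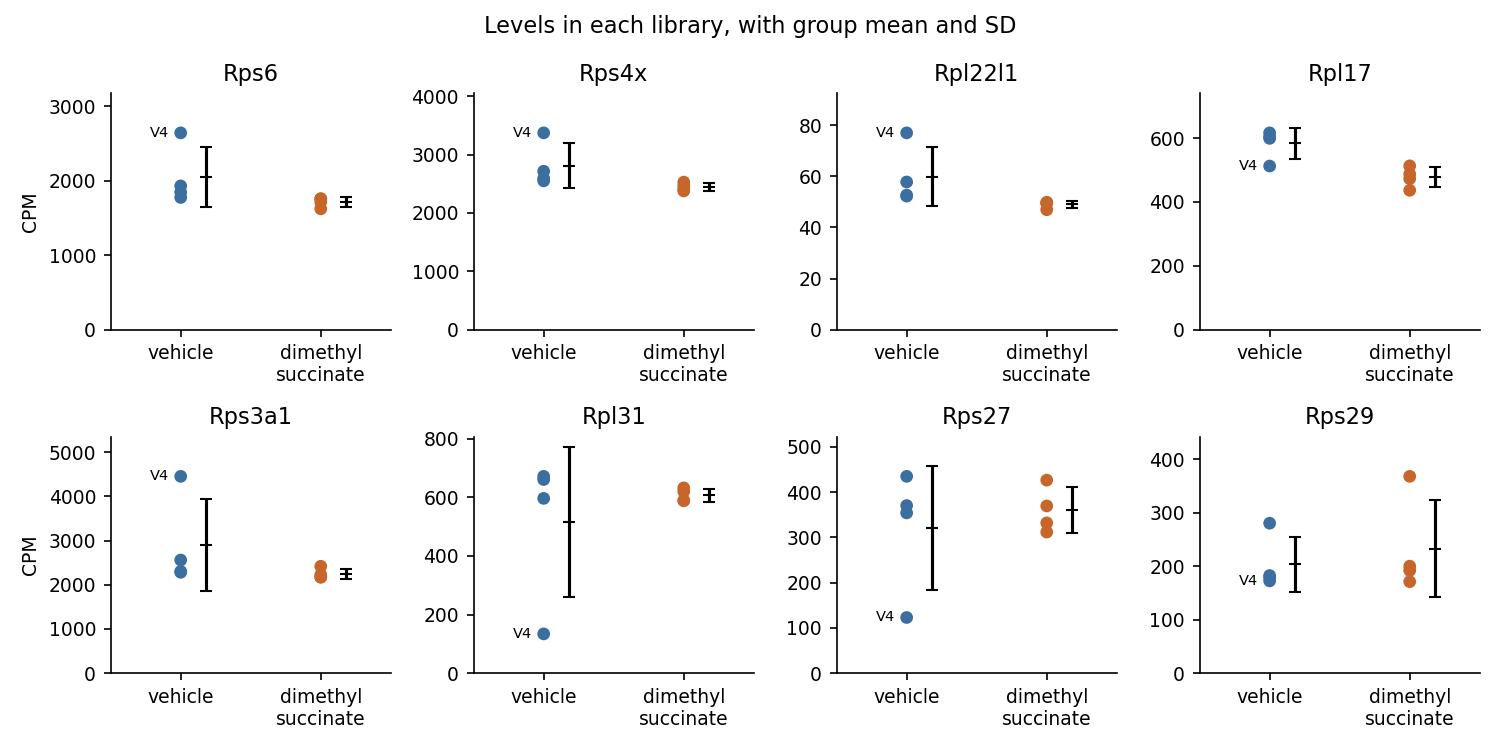
CPM of 8 members in each vehicle and dimethyl succinate library (points), with the group mean and SD (bars, n = 4); V4 marks vehicle library 4. V4 is the highest point for Rps6, Rps4x, Rpl22l1 and Rps3a1 and the lowest for Rpl31 and Rps27, while for Rps29 the points that stand off are vehicle library 2 at 280.6 CPM and dimethyl succinate library 4 at 368 CPM.

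Rpl17 was the member with the smallest p. It encodes a protein at the rim of the tunnel through which the new chain leaves the ribosome. It stood at 599, 616, 605 and 513 CPM in vehicle libraries 1 to 4 and at 513, 473, 437 and 487 CPM in dimethyl succinate libraries 1 to 4. Vehicle library 4 lay just below the highest treated library, and the other 3 vehicle libraries lay above all treated libraries. The mean was 583 ± 47.7 CPM for vehicle and 477 ± 31.9 CPM for the ester (SD, n = 4), and the log2 fold change was -0.29 ± 0.076 (SE; edgeR, unadjusted p of 0.00237). Without vehicle library 4 the log2 fold change was -0.35 ± 0.050 and the edgeR adjusted p was 0.00198. Rpl17 was the 1 member called lower in that comparison of 7 libraries (beside 0.0703% of the 14232 genes tested), and 0 were called higher (beside 0.126%).

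Rpl17 and 1 of its copies had differences of opposite sign. All coding windows of Rpl17 occur in other genes, 81.3% of them in Rpl17-ps3, and the pseudogenes named after it held 66719 counts in all against 63834 in Rpl17. Rpl17-ps10 had a mean of 173 ± 14.9 CPM in the vehicle group and 224 ± 13.0 CPM in the treated group (SD, n = 4). It was higher in 4 of 4 treated libraries than in any vehicle library (edgeR, log2 fold change of 0.37, unadjusted p of 0.000197, adjusted p of 0.646). Without vehicle library 4, Rpl17-ps10 passed the threshold in the direction opposite to Rpl17, at 0.33 with an edgeR adjusted p of 0.00767. Of the other tested copies, Rpl17-ps3 was at -0.14, Rpl17-ps5 at -0.025, Rpl17-ps8 at 0.10 and Rpl17-ps9 at -0.16 over all 8 libraries. Without vehicle library 4 these were -0.039, -0.23, -0.10 and -0.35, on the same side as Rpl17. How many windows of Rpl17 lie in Rpl17-ps10 is not reported here. Rpl17 made up 53.7, 52.3, 54.6 and 46.9% of the sum of Rpl17 and its named pseudogenes in the vehicle libraries, and 46.8, 45.9, 43.2 and 48.1% in the treated libraries. The sum itself stood at 1116, 1179, 1107 and 1093 CPM (TMM-scaled, as all CPM here) under vehicle and at 1096, 1030, 1011 and 1014 under dimethyl succinate. With the pseudogenes added, the log2 fold change of Rpl17 was -0.12 (edgeR, unadjusted p of 0.0930). Which copy a shared read belonged to cannot be told from these counts.

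Without vehicle library 4, 5 members were lower at an unadjusted p under 0.05 (6.02%, beside 4.12% of all genes tested) and 0 were higher (beside 4.43%). These were Rpl17, Rps6, Rps4x, Rpl22l1 and Rps15a, the last picked after its values were seen, with a log2 fold change of -0.11 ± 0.047 (SE). Rps15a stood at 745, 830, 756 and 676 CPM under vehicle and between 704 and 740 CPM under dimethyl succinate.

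Grouped by place in the ribosome, the members' values overlapped. The stalk proteins had log2 fold changes of 0.10 (Rplp0), -0.094 (Rplp1) and -0.20 (Rplp2), or 0.0080, -0.034 and -0.054 without vehicle library 4. Rpl5 and Rpl11, which travel with the 5S ribosomal RNA, were at -0.014 and -0.17, or -0.042 and -0.020 without that library. Members near the catalytic centre, Rpl3, Rpl4, Rpl8 and Rpl10, lay between -0.13 and -0.067, and between -0.066 and 0.0019 without it, with Rpl8 at both the lower end of the first range and the upper end of the second. The 8 members of the exit tunnel rim had a median of -0.063 and ran from -0.29 (Rpl17) to 0.24 (Rpl31). Rpl35 of the rim stood at 506, 590, 528 and 373 CPM under vehicle and between 481 and 558 CPM under dimethyl succinate, at 0.072 on the log2 scale, or -0.045 without vehicle library 4. The 14 members of the small-subunit head had a median of 0.016 with 8 above 0, which turned to -0.019 with 6 above 0 without vehicle library 4. The platform members Rps3a1, Rps14 and Rps26 had a median of -0.21, which was -0.021 without vehicle library 4. At an unadjusted p under 0.05, the rim list had Rpl17 and the other 5 lists had 0 members in either direction.

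The platform shows how much 1 library weighed. Rps3a1 stood at 2283, 2560, 2303 and 4453 CPM under vehicle and at 2226, 2170, 2177 and 2418 CPM under dimethyl succinate. Vehicle library 4 was far above all others, and the rest overlapped. The log2 fold change was -0.37 ± 0.192 (SE) with that library and -0.083 ± 0.050 without it.

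Several members turned direction when vehicle library 4 was left out. Rpl31, at the tunnel rim, stood at 596, 671, 661 and 134 CPM under vehicle and at 632, 589, 588 and 620 CPM under dimethyl succinate. Its log2 fold change was 0.24 ± 0.462 (SE), and -0.082 ± 0.049 without that library. The log2 fold change of Rps27 was 0.17 with it and -0.10 without it. Rpl27, picked after its values were seen, was at 0.15 with it and at -0.076 without it. None of these 3 passed an unadjusted p of 0.05 in either comparison. Adding the counts of named pseudogenes left the 8-library value of Rpl31 at 0.21 and of Rps27 at 0.17. For Rps27 this could change little, since its 1 named pseudogene held 10 counts beside 41383 of Rps27. The 7767 counts of its paralog Rps27rt were not added.

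**Figure D3:**
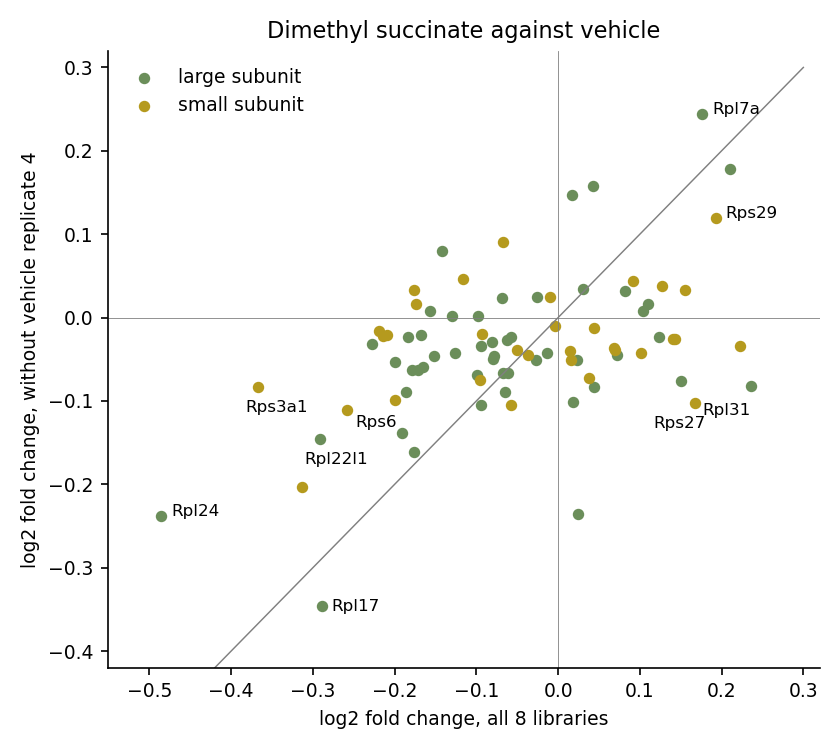
Log2 fold change of dimethyl succinate over vehicle for the 83 tested members, with all 8 libraries (horizontal) and without vehicle library 4 (vertical), coloured by subunit; the diagonal marks equal values. Points above 0 on the horizontal axis such as Rpl31 (0.24) and Rps27 (0.17) lie at -0.082 and -0.10 on the vertical axis, and Rpl17 is lowest there at -0.35.

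The departure of vehicle library 4 can be read gene by gene. For each member the log2 CPM of a library was compared with the mean of the other libraries of its group, never counting vehicle library 4 in that mean. This reference was chosen after the data were seen. Over the 83 members the SD of these deviations was 0.584 in vehicle library 4 and 0.115 to 0.225 in the other 7 libraries. Over 2471 other genes of at least 100 CPM it was 0.342 in vehicle library 4 and 0.063 to 0.135 elsewhere. In vehicle library 4, 36.1% of members deviated by over 0.5, 17 upwards and 13 downwards, beside 9.63% of the other genes.

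Deviations went both ways within each subunit. Among the lowest in vehicle library 4 were Rpl31 (-2.26), Rps27 (-1.64), Rpl27 (-1.26) and Rpl39l (-1.20). The highest were Rps3a1 (0.90), Rpl24 (0.80), Rpl37a (0.75), Rps9 (0.70) and Rps3 (0.68), the last a protein at the mRNA entry of the small subunit. The median deviation in this library was 0.12, close to the 0.10 of vehicle library 2 and the 0.12 of dimethyl succinate library 4. By this median the family's level did not set the library apart, whereas the spread over single genes and the balance of the subunits did.

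**Figure D4:**
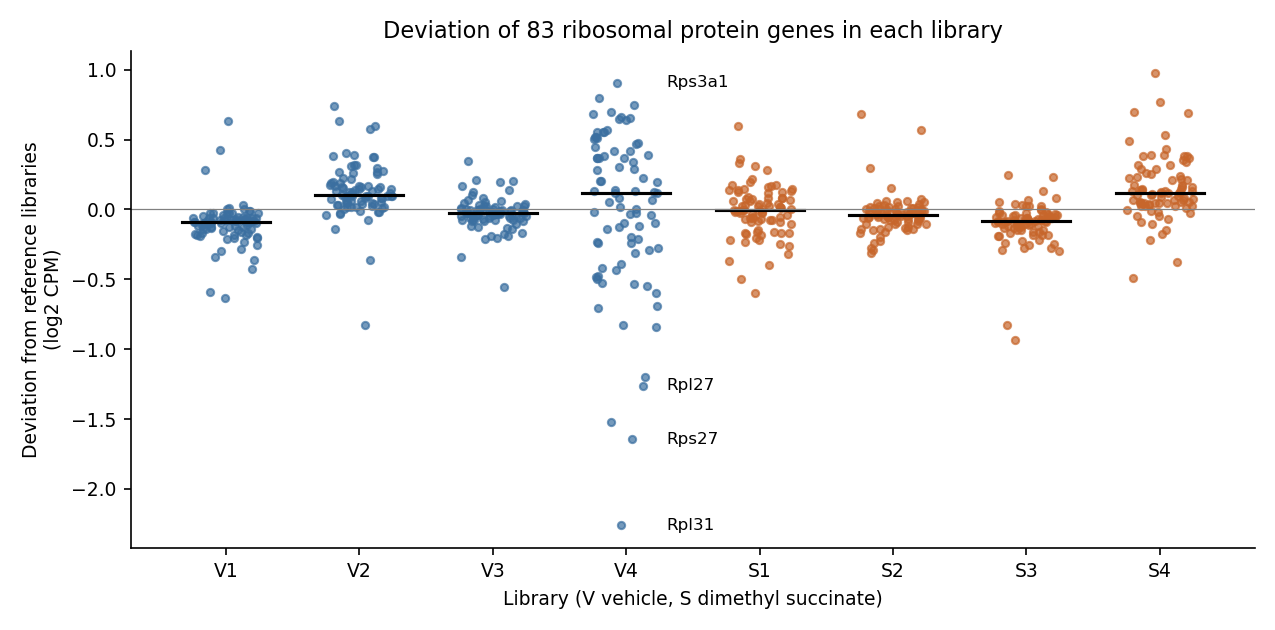
Deviation in log2 CPM of each of the 83 tested members (points) from the mean of the other libraries of its group, with vehicle library 4 left out of every mean; black lines are medians. The points of V4 spread from -2.26 (Rpl31) to 0.90 (Rps3a1) while the SD in the other libraries is 0.115 to 0.225.

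In 5 of the other 7 libraries the members' deviations varied with the length of the coding sequence. Across the 83 members, Spearman's rho between deviation and coding length was -0.57 in vehicle library 2 and -0.66 in dimethyl succinate library 4. It was 0.56 in vehicle library 1, 0.49 in vehicle library 3, 0.49 in dimethyl succinate library 1, 0.18 and 0.24 in libraries 2 and 3 of that group and 0.21 in vehicle library 4. These are descriptions across genes of 1 library, which share its depth and preparation, and the deviations of a group share their reference libraries. Across 2424 other genes of at least 100 CPM with a coding length the values were 0.41, -0.33, -0.076 and -0.14 in vehicle libraries 1 to 4 and -0.12, 0.18, 0.28 and -0.19 in dimethyl succinate libraries 1 to 4. They were opposite in sign to those of the members in vehicle libraries 3 and 4 and dimethyl succinate library 1. In the treated group, deviation also varied with the GC content of the coding sequence. Across members, rho was 0.35, -0.50, -0.32 and -0.093 in dimethyl succinate libraries 1 to 4 and -0.0064 to 0.074 under vehicle. Across the other genes it was 0.74, -0.50, -0.49 and -0.33 in those libraries and -0.061 to 0.096 under vehicle.

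In 7 libraries the median deviation of the shortest members lay farther from 0 than that of the longest; in vehicle library 4 it was -0.025 beside 0.13. Among the 27 members with coding sequences of 75 to 384 bases the median deviation was 0.26 in vehicle library 2 and 0.36 in dimethyl succinate library 4, and it was -0.18 in vehicle library 1 and -0.17 in dimethyl succinate library 1. Among the 27 longest, of 576 to 1257 bases, it was 0.056 in vehicle library 2 and 0.047 in dimethyl succinate library 4. Rps29, a zinc-binding protein of the small-subunit head, stood at 183, 280.6, 179 and 173 CPM under vehicle and at 171, 200.3, 192 and 368 CPM under dimethyl succinate. Its log2 fold change of 0.19 ± 0.278 (SE) was -0.12 without dimethyl succinate library 4. Rpl38, picked after its values were seen, was highest in the same library of the treated group, at 210.5 CPM beside 121 to 127.

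**Figure D5:**
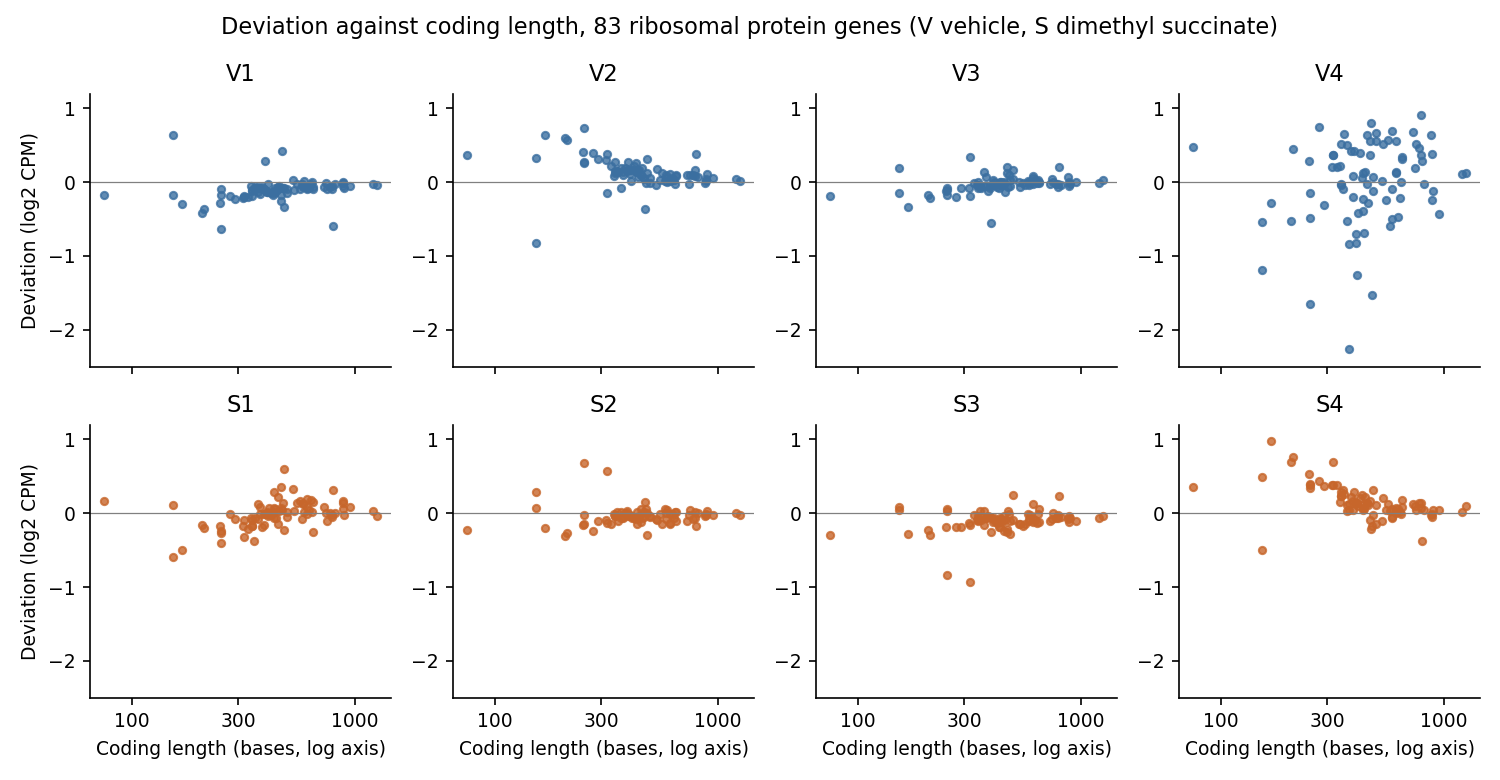
Deviation in log2 CPM against coding length (bases, log axis) for the 83 tested members, 1 panel for each library (V vehicle, S dimethyl succinate). Short members lie above 0 in V2 and S4 (rho of -0.57 and -0.66) and below 0 in V1 and S1 (0.56 and 0.49), and V4 is scattered at all lengths.

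Paralogs give a ratio within each library that library scaling does not touch. The first 60 coding bases of Rps27 (chr3:90212522-90213651, minus strand, GRCm38) and its paralogs show which reads could be told apart, with bases that differ from Rps27 in capitals.
Rps27: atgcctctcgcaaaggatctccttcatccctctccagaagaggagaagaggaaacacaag
Rps27rt: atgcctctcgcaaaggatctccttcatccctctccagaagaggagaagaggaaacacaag
Rps27l: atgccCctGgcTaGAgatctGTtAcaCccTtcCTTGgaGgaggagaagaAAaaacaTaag
Over the whole coding sequence of 252 bases, Rps27rt had 0 mismatches to Rps27 and Rps27l had 60. Counts of Rps27 and Rps27rt (chr9:114982366-114982739, minus strand) are therefore uncertain. Those of Rps27l (chr9:66946086-66949516, plus strand) rest on a sequence that differs from both. Even so, 48.3% of the coding windows of Rps27l were found in transcripts of 4 other genes.

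None of 6 paralog pairs differed in ratio between the groups by an exact two-sided permutation test, which cannot give a p under 0.0286 here, with p from 0.257 to 0.914, and every Benjamini-Hochberg adjusted p over the 6 was 0.914. Rps27 itself stood at 354, 435, 370 and 123 CPM under vehicle and at 312, 332, 369 and 426 CPM under dimethyl succinate. Counts of Rps27l were 35.1, 34.1, 32.4 and 75.6% of those of Rps27 in vehicle libraries 1 to 4 and 32.9, 37.6, 34.6 and 36.2% under dimethyl succinate. Vehicle library 4 alone stood off: there Rps27 was low, and Rps27l stood at 92.9 CPM beside 120 to 148 CPM in the other vehicle libraries. The mean log2 ratio was -1.27 ± 0.581 in the vehicle group and -1.50 ± 0.084 in the treated group (SD, n = 4), a difference of -0.23, or 0.059 without vehicle library 4. Counts of Rpl22l1 were 10.1 to 12.9% of those of Rpl22 under vehicle and 9.81 to 11.4% under dimethyl succinate. Rpl7l1 stood at 10.7 to 13.0% and 11.7 to 12.3% of Rpl7. Rpl36al and Rpl39l stayed under 1% of Rpl36a and Rpl39 in all 8 libraries. For Rpl3 and Rpl10 no ratio was formed, because Rpl3l and Rpl10l did not pass the filter.

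Genes linked to the family by function were read from lists chosen with earlier results known. Of the ribosomal proteins that the naming rule leaves out, Fau and Rack1 had log2 fold changes of -0.083 and 0.011, neither at an unadjusted p under 0.05. Of 14 other genes known as TOP mRNAs, 12 lay below 0 and 0 had an unadjusted p under 0.05, with a median of -0.099. In the promoter table, 8 of the 14 had an entry and 2 of these had the C and run of pyrimidines at an annotated start. The median was -0.038 without vehicle library 4, where 3 of the 14, Eef1a1, Tpt1 and Eif3e, were lower at an unadjusted p under 0.05 (beside 4.12% of all genes). For Eef1a1, elongation factor 1A, the log2 fold change was -0.18 ± 0.088 (SE), or -0.097 in the 7 libraries. Of 10 regulators of these mRNAs, 9 lay above 0 (7 without vehicle library 4) with a median of 0.059. The list was not sorted by whether a gene promotes or restrains the mTOR pathway. Its count and median therefore have no single direction. Mtor, the kinase itself, was at 0.16 ± 0.059 (SE, edgeR, unadjusted p of 0.0170, adjusted p of 0.802). Over all 8 libraries the treated libraries were all above the vehicle libraries for Mtor and Tsc2 of the regulators (beside 2.5% of all genes) and all below them for Eef1a1 and Eif3e of the TOP mRNAs (beside 2.32%). Of 6 tested chaperones and escorts of ribosomal proteins, 6 lay below 0 with a median of -0.14, which was 0.0092 without vehicle library 4.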

How the data were processed

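The members and all gene lists were chosen with earlier results of these data known. Reads were aligned with HISAT2 2.0.5, per the submitters' processing notes, and for the counting tool, strand setting, annotation and build the sources used here state nothing. Starts or ends of 99.17% of the matched genes equalled GENCODE M21 (GRCm38), used here for coding sequences. The authors deposited 1 table that holds a raw count and an FPKM value for each gene in every library, per the file headers. Its group means (a normalised signal of unstated unit), log2 fold changes, p-values and gene lengths were also deposited by the authors, and only the lengths were used.

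From the counts, edgeR 4.0.16 in R 4.3.3 fitted all 8 libraries, 4 against 4, without covariates: filterByExpr (13981 genes kept), TMM scaling, the robust quasi-likelihood F test and Benjamini-Hochberg adjustment over all tested genes at 0.05. The same fit without vehicle library 4 tested 14232 genes. CPM used TMM-scaled library sizes, with a prior count of 2 on the log2 scale. Paralog ratios were compared by exact permutation over the 70 assignments of 8 libraries to groups. Standard errors were taken from the F statistic. The scripts were tested on simulated data. No library was a copy of another: the closest pair had a chi-square per gene of 2.11.

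Genes were named if they belonged to a list by ribosomal site or a paralog pair, had an unadjusted p under 0.05, were called with or without vehicle library 4, or were among the 5 highest or lowest in FPKM. Others are said to be picked after their values were seen, or were named for the groups not overlapping. Rpl37a and Rps9 were named for the size of their deviation in vehicle library 4. Alternatives were DESeq2 1.42.0, other scalings and filters, length offsets, named pseudogenes added, leaving out each library in turn, and a block for the number in the titles. Some genes within this rule are not reported here. The offset by coding length was added after the data were seen.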

Additional observations from a re-analysis of the deposited data

Results flagged for a closer look

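The 54 group values examined were the level of 18 members, a paralog ratio or a family measure, each in 1 group of 4 libraries. In 13 of them a single library stood far from the other 3 of its group. Chance alone also gives this in a small share of groups. Some of the 18 members, Rpl27 and Rpl38 among them, were picked after their values were seen, so the tally by library describes this choice only. Vehicle library 4 accounted for 7 of the 13. Its ratio of large-subunit to small-subunit counts was 1.153 beside 1.258 to 1.279. It was low for Rpl31 (134 CPM), Rpl27 (228 CPM) and Rpl17 (512.6 CPM), and high for Rps3a1 (4453 CPM) and Rps3 (3269 CPM). Its log2 ratio of Rps27l over Rps27 was -0.4029 beside -1.623 to -1.508. The cause was not tested, and its mitochondrial share of 0.252% stands beside these values.

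Dimethyl succinate library 4 was high for the short genes Rps29 (368.3 CPM beside 171.3 to 200.3) and Rpl38 (210.5 CPM beside 121.3 to 127.2) and for Rpl27 (556.8 CPM beside 500.4 to 508.6). Vehicle library 2 was high for Rps29 (280.6 CPM beside 172.7 to 182.7) and for Rpl7 (1887 CPM beside 1800 to 1812). Dimethyl succinate library 1 was low for Rpl22l1, at 46.93 CPM beside 49.47 to 49.84.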

How the results depend on the processing

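The count of 0 members past an adjusted p of 0.05 held under the scalings, filters, length offsets, DESeq2 and added pseudogenes. It was 0 to 1 with each library left out. Only pseudogenes named after their member were added. Copies under other names were not, such as Gm10275, which contains every coding window of Rpl12 and held 38543 counts. The 5 members lower at an unadjusted p under 0.05 became 2 with the stricter filter and 1 to 9 with a library left out. Whether the title numbers pair the libraries is not stated in the labels. Deviations of same-numbered libraries correlated at -0.014 to 0.13, beside -0.118 to 0.086 for other pairings, which does not settle it. With the replicate block that count was 12, and 12 with the block and a gene length offset. With a library left out, the median ran from -0.086 to -0.037 over members, from -0.12 to -0.045 over the large subunit and from -0.068 to 0.0087, crossing 0, over the small subunit. Under the other alternatives, single genes kept direction and side of the threshold in 249 values, and 1 turned: Rpl38 was at -0.020 with named pseudogenes added. With each library left out, gene values that crossed 0 were those of Rpl39l (-0.24 to 0.35), Rpl36al (-0.36 to 0.037), Rps10 (-0.19 to 0.046), Rpl31 (-0.082 to 0.39), Rps27 (-0.10 to 0.35), Rpl27 (-0.076 to 0.24), Rps29 (-0.12 to 0.39) and Rpl38 (-0.19 to 0.16). So did the group differences in log2 ratio of Rpl7l1 over Rpl7 (-0.0025 to 0.090), Rpl36al over Rpl36a (-0.23 to 0.14), Rpl39l over Rpl39 (-0.095 to 0.35), Rps27l over Rps27 (-0.35 to 0.059) and Rps27rt over Rps27 (-0.46 to 0.14). Rpl17 passed the adjusted threshold only without vehicle library 4. The cause of these shifts was not tested. At under 3 CPM, Rpl39l and Rpl36al are limited by counts.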
